A study of Mus musculus with 8 samples.

Results

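The regions described here are the peaks of m6A (N6-methyladenosine, adenosine with an added methyl group) that the authors' deposited tables place in 3′ untranslated regions (3′ UTRs), the part of an mRNA between the stop codon and the poly(A) tail. They are the rows of 4 peak lists whose class is the 3′ UTR, 8158 of 35697 peaks in all. The wild-type pachytene list (WT PA) held 1553 of 7502, the knockout pachytene list (KO PA) 2166 of 9931, the wild-type round spermatid list (WT RO) 2314 of 9418 and the knockout round spermatid list (KO RO) 2125 of 8846. The peaks came from methylated RNA immunoprecipitation sequencing (MeRIP-seq), which sequences RNA fragments (of 100 to 200 nt, per the labels) pulled down by an antibody against m6A beside unselected fragments, called input.

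The cells were spermatogenic cells from the testes of C57BL/6 mice aged 12 weeks. The labels give the genotypes as WT and Alkbh5-/-, and name the cells PA and RO, which the series title spells out as pachytene spermatocytes and round spermatids. Each genotype and cell fraction had 1 input and 1 immunoprecipitated library, 8 libraries in all. The number of animals behind a library and the way the cells were separated are not given in the sources used here, and neither is the cell type in which the deletion acts. Because each group has 1 library, differences between groups could not be tested or checked against replicates. Intervals are 95% intervals and cover counting error only. Where 4 values follow each other without labels, their order is WT PA, KO PA, WT RO and KO RO.

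m6A is written by a methyltransferase complex, mostly within a short motif built around GGAC, and is removed by the demethylases FTO and ALKBH5. It is known to gather near stop codons and in 3′ UTRs, where microRNAs, deadenylases and RNA-binding proteins also act on the stability, storage and translation of an mRNA. Male germ cells store many mRNAs after meiosis and translate them later, and loss of Alkbh5 in mice is known to impair spermatogenesis.

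Sequences were available for few of the peaks, namely where the exon blocks of a peak ran into a RefSeq promoter window. These windows (GRCm38.p6) reached from 250 bases before to 50 after a gene start. Whether that start belonged to the gene of the peak or to another gene was not checked. Of the peaks, 5, 10, 16 and 9 per list had at least 30 bases covered, which came to 24 separate stretches of 3816 bases. The 5 windows below show GGAC where the covered stretch was common to 2 or more lists, which held for 9 stretches, of which 3 had no GGAC in the common part and 1 had it too near the edge. Each is read 5′ to 3′ on the strand of the peak, with the match in capitals.
C730034F03Rik: gccaatgaatGGACgatggtagtt
Tmem82: tcttggagatGGACagcgtcagca
3110070M22Rik: gctgatctcaGGACatcgagggca
Slc25a44: agctagaaatGGACtcgaggagat
C2cd3: gaaacctgagGGACgtggctacca

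The C730034F03Rik window lies at chr15:89429998-89430021 on the plus strand, inside a peak of all 4 lists, whose fold of immunoprecipitated over input was 10.1, 32.0, 8.23 and 2.48. The Tmem82 window, chr4:141614350-141614373 on the minus strand, lies in peaks of WT PA, KO PA and WT RO with folds of 18.6, 15.0 and 14.8. The other windows lie in peaks of 2 lists each. They are chr13:119487949-119487972 on the minus strand for 3110070M22Rik (folds 10 in WT PA and 68.6 in WT RO), chr3:88410569-88410592 on the minus strand for Slc25a44 (13.2 in WT PA and 5.97 in KO RO) and chr7:100469520-100469543 on the plus strand for C2cd3 (13.7 in KO PA and 61.9 in WT RO). Slc25a44 encodes a mitochondrial carrier of branched-chain amino acids and C2cd3 a protein of the centriole. The fold is the authors' own value for each peak, and it is used below only to describe and rank peaks of 1 list, because it depends on the depth of both libraries of a pair and the depth of the immunoprecipitated libraries was not analysed here.

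Counted over all 24 stretches, GGAC occurred 25 times on the strand of the transcript, or 6.55 per kb, and 6 times on the opposite strand, or 1.57 per kb. It was present on the transcript strand in 15 stretches and on the opposite strand in 4. In the 32851 promoter windows of the table it occurred 3.82 times per kb on the strand of the gene. Of the windows, 65.6% held it on the strand of the gene, 66.1% on the opposite strand and 87.7% on either strand. The stretches were 32 to 388 bases long and so differed in length from the windows. Shares of windows and numbers of stretches holding a motif are therefore not like for like. GGACT, which contains GGAC, occurred 6 times on the transcript strand and 3 times on the other, and 45.5% of promoter windows held it on either strand. ATTTA, the core of AU-rich elements, occurred 1 time on the transcript strand and 3 times on the other (34.1% of windows), and neither the Pumilio motif TGTANATA (3.08% of windows) nor the polyadenylation signal AATAAA (19.6%) was found on either strand. These stretches lie by construction inside promoter windows, so that they are a small and particular set of the peaks, and a match describes letters and not a methylated site.

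A microRNA gene was found inside the exon blocks of a 3′ UTR peak at 2 loci. Scd2, which encodes a stearoyl-CoA desaturase of fatty acid synthesis, had a 3′ UTR peak in all 4 lists that ran through the gene of miR-5114 on the same strand, at chr19:44303171-44303192 for the mature form. The mature sequence is shown with its seed, bases 2 to 8, in capitals.
mmu-miR-5114: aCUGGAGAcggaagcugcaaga

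The Scd2 peaks started at 44303119 in WT PA, at 44303149 in both knockout lists and at 44303179 in WT RO, so that the WT RO peak covered 14 of the 22 mature bases and the others covered all of them. Their folds were 6.79, 3.64, 8.81 and 3.88, below the median 3′ UTR peak of each list. Scd2 was present in the input at 78.2, 124, 54.9 and 87.1 CPM, a gene's share of the library's counts scaled by library size, so that the mRNA itself was measured in every library. The hairpin holds no GGAC. The other locus was Gm5134, whose WT RO peak of fold 28.3 held the whole hairpin of miR-6409.

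The 3′ UTR took 20.7% (19.8% to 21.6%), 21.8% (21.0% to 22.6%), 24.6% (23.7% to 25.4%) and 24% (23.1% to 24.9%) of all peaks. Both round spermatid lists thus had a larger share than both pachytene lists, with intervals that did not overlap, while within a fraction the intervals of the genotypes overlapped. In PA the knockout list held 1.39 times as many 3′ UTR peaks as the wild-type list (1.31 to 1.49), and in RO it held 0.918 times as many (0.865 to 0.974). For coding sequence peaks these ratios were 1.29 (1.24 to 1.35) in PA and 1.01 (0.968 to 1.05) in RO. In WT the RO list held 1.49 times as many 3′ UTR peaks as the PA list (1.40 to 1.59), against 1.11 times for coding sequence peaks (1.06 to 1.15). In KO the same ratios were 0.981 (0.924 to 1.04) and 0.862 (0.829 to 0.896). The class is thus larger relative to the coding sequence in RO in both genotypes, but its number was higher in RO only among the WT lists.

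The WT RO list stood apart in how many of its members were weakly supported. Per the authors' deposited table, 395 of its 3′ UTR peaks, 17.1%, had a false discovery rate (FDR) of 0.05 or more, against 168 (10.8%) in WT PA, 47 (2.17%) in KO PA and 83 (3.91%) in KO RO. Such peaks were more frequent in 3′ UTRs than in the coding sequence in every list. The coding shares were 4.70%, 1.86%, 9.34% and 2.75%, and in the KO lists the intervals of the classes overlapped. With peaks under an FDR of 0.05 the knockout over wild-type ratio of 3′ UTR peaks was 1.53 in PA (1.43 to 1.64), and in RO it turned to 1.06 (0.999 to 1.13). With peaks of at least 5-fold it was 0.85 (0.799 to 0.905), so that the direction of the RO comparison depends on which peaks are kept.

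**Figure D1:**
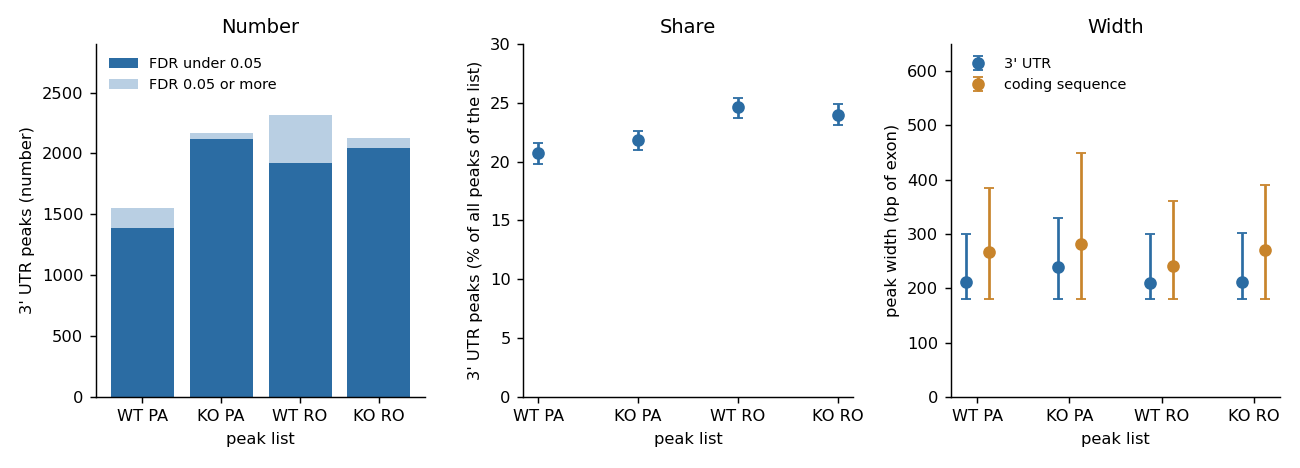
3′ UTR peaks of the 4 lists. Left, number of peaks, split by the authors' FDR at 0.05; middle, share of all peaks of the list in percent, with 95% Wilson intervals; right, median peak width in bases of exon for 3′ UTR and coding sequence peaks, with bars from the lower to the upper quartile. The WT RO list has the most 3′ UTR peaks, 2314, and the most with an FDR of 0.05 or more, 395.

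Peaks in 3′ UTRs were shorter than peaks in the coding sequence in every list. The median exonic width was 211, 240.0, 210.0 and 211 bases, against 266, 282, 241 and 270.0 for the coding sequence. Between 91.9% and 93.6% of the 3′ UTR widths lay within 1 base of a multiple of 30, so that widths moved in steps. Peaks made of several exon blocks were 5.54%, 8.08%, 5.53% and 6.54% of the 3′ UTR peaks, against 16.8% to 28.1% for the coding sequence. The median fold was 12.6, 13.5, 16.1 and 12.6, close to the 11.9, 13.4, 16.1 and 12.4 of the coding sequence peaks in the same lists. Across the 3′ UTR peaks of a list, wider peaks had higher folds, with a Spearman correlation between 0.57 and 0.66 over 1553 to 2314 peaks that share their libraries.

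Nearly all members belonged to protein-coding genes, and the 11 exceptions over all lists carried other annotations, such as processed pseudogene or processed transcript. A 3′ UTR peak was found in 1330, 1841, 1930 and 1790 genes. In all, 3195 genes had one in any list and 632 in all lists. Between 85.0% and 87.0% of the genes of a list had a single 3′ UTR peak, and the mean was 1.17 to 1.20 per gene, against 1.63 to 1.67 for the coding sequence. Of the genes with a 3′ UTR peak, 25.9%, 30.7%, 28.2% and 26.5% also had a coding sequence peak, and 65.7% to 71.1% had peaks of no other class.

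The genes with the most 3′ UTR peaks were Rev3l, the catalytic subunit of DNA polymerase zeta, with 5, 6, 7 and 4 peaks, and Ankrd11, a chromatin regulator, with 5, 5, 7 and 6. Zcchc14 had 2, 6, 1 and 5. The vomeronasal receptor gene Vmn1r43 had 6 in WT RO and 1 or 2 elsewhere. Banp had 5, 5, 4 and 6. Adnp, a homeobox protein, had 4, 5, 5 and 4, and Gm20716 had 5, 5, 5 and 4, of which 4, 5, 5 and 4 overlapped Adnp peaks on the same strand. The reads of such overlapping gene models cannot be assigned to 1 of them. Gm20716 had a count of 0 in every input library. Merging the overlapping peaks of a list left 1517, 2117, 2259 and 2073 separate loci.

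The position of the peaks was measured as the distance from the classified point of a peak to the 3′ end of its gene in RefSeq. The symbol and chromosome were found there for 96.2% to 96.7% of the 3′ UTR peaks. The medians and shares given next cover only peaks inside their RefSeq gene, which were 1443, 2018, 2162 and 1989 of the 3′ UTR peaks. The median distance was 1618 (1533 to 1755), 1605 (1526 to 1705), 1486 (1420 to 1581) and 1583 bases (1512 to 1676), against 8831 to 9084 for the coding sequence peaks. Peaks within 1 kb of the gene end made up 33.1% (30.7% to 35.5%), 33.6% (31.6% to 35.7%), 38.1% (36.0% to 40.1%) and 34.8% (32.7% to 36.9%) of the 3′ UTR peaks inside their gene, the largest share being that of WT RO. The distance counts genomic bases, introns included.

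**Figure D2:**
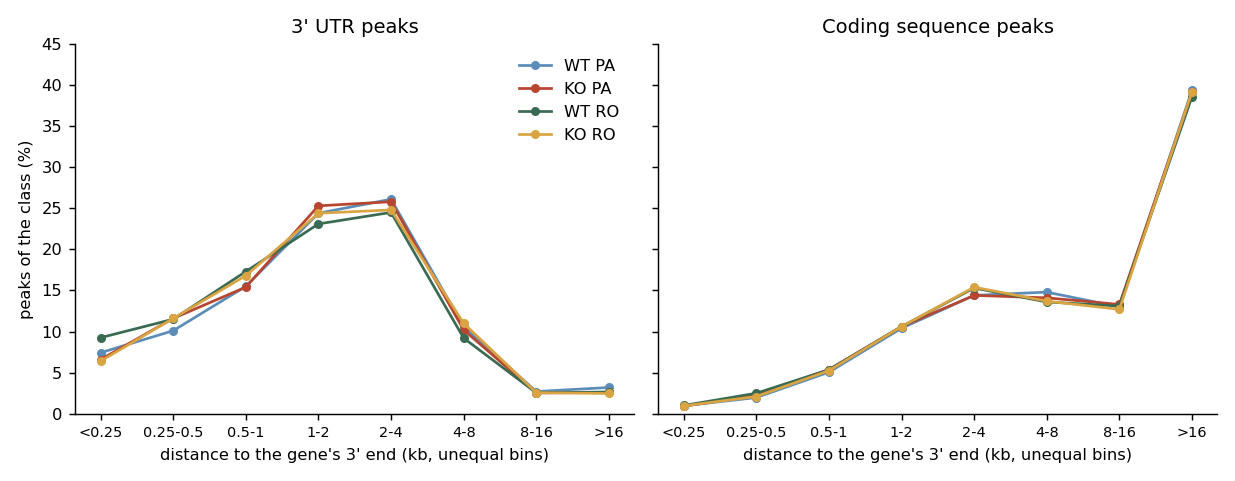
Share of peaks, in percent of the peaks of the class that lie inside their RefSeq gene, by genomic distance from the classified point to the 3′ end of that gene. Bins of kb are unequal, for 3′ UTR peaks (left) and coding sequence peaks (right), and each line is 1 list. In all 4 lists the 3′ UTR peaks are most frequent between 1 and 4 kb, and the coding sequence peaks beyond 16 kb.

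Some members lay far from the end of their gene. The distance was over 10 kb for 72 (4.82%), 86 (4.12%), 90 (4.03%) and 81 peaks (3.94%), and 51, 68, 74 and 66 peaks lay beyond the annotated end. The Rev3l peaks illustrate the first case, since all but 1 of them lay between 46866 and 53418 bases from the gene end, the exception being a WT RO peak at 869 bases. The Tbc1d17 peaks illustrate the second, all but 1 of them lying past the annotated end of the gene. Transcript models were not used here, so whether such peaks, those of Rev3l included, lie in 3′ UTR or in coding bases of a longer transcript was not tested.

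Several of the widest peaks also lay far from the gene end, and for Ankrd11, Asxl2 and Nfat5 too it was not tested whether they are 3′ UTR or coding bases. Ankrd11 had the widest peak classed as 3′ UTR in WT PA, 4228 bases at chr8:122891846-122896073 on the minus strand, with a fold of 327, the highest of that list. In KO PA the peak was 3928 bases wide with a fold of 264, also the widest and the highest. In KO RO the stretch was called as peaks of 2009 and 1800 bases with folds of 13.6 and 51.6, and in WT RO as 4 peaks of 271 to 780 bases with folds of 3.46 to 78.7. The classified point of the WT PA peak lay 10639 bases from the gene end, while a separate Ankrd11 peak of 271 to 391 bases lay 666 to 726 bases from the end in every list. Asxl2, a chromatin regulator linked to Polycomb, and Nfat5, the transcription factor of the osmotic stress response, were also among the widest, with peaks of 1200 and 1050 bases in WT PA, at 9113 and 10297 bases from the gene end.

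The members with the highest folds in all lists were found at 10 loci, chosen by the mean percentile of the fold within each list. Celsr2, an atypical cadherin, had a peak at chr3:108391810-108392560 on the minus strand in WT RO, and folds of 121, 139, 336 and 370 over the lists. Camk2g, a calcium and calmodulin dependent kinase, had folds of 177, 118, 256 and 250. Unc13b, which primes vesicles for release, had folds of 142, 73.7, 394 and 71.9 for a peak at chr4:43264511-43264841 on the plus strand whose bounds were identical in WT PA, KO PA and KO RO and 30 bases longer in WT RO. It ended close to the end of the gene, at 183 to 198 bases from the classified point. Dgke, a diacylglycerol kinase, had folds of 174, 76.0, 147 and 60.3, Map1b, a microtubule-associated protein, 106, 152, 66.3 and 172, and Phf21a, a histone reader, 76.9, 57.9, 134 and 108. AI987944, Zfp280d, Phf20 and Ccdc134 completed the set, with folds between 53.6 and 199.

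Other peaks had a very high fold in 1 list and a lower one elsewhere. Ttc4, a co-chaperone, had the highest fold of any 3′ UTR peak, 977 in WT RO at chr4:106662496-106663035 on the minus strand, and 54.8 in WT PA, 58.3 in KO PA and 19.9 in KO RO. Its input level was 105, 71.4, 92.8 and 53.9 CPM. Tspyl1, of a nucleosome assembly family, had a fold of 467 in WT RO against 5.97 in WT PA, 18.4 in KO PA and 14.0 in KO RO, and Ttc14 had 250 in KO PA against 8.27 to 11.3 elsewhere. Lifr, the receptor of leukemia inhibitory factor, had 224 in KO PA, with 102 and 43.6 in the WT RO and KO RO lists, and overlapped a WT PA peak of fold 53.2 that was classed as exon. Dcun1d2, which promotes neddylation, had 181, 110, 39.0 and 65.2. Gid8, a subunit of a ubiquitin ligase, and Rictor, a subunit of an mTOR complex, had 204 and 176 in KO RO. Folds of different lists are not on 1 scale, so no change is read from these values.

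The highest fold of the KO RO list showed how the class depends on 1 point of a peak. Mtmr12, a catalytically inactive relative of the myotubularin phosphatases, had a 3′ UTR peak of fold 381 at chr15:12269972-12270242 on the plus strand in KO RO and no 3′ UTR peak in any other list. All 3 other lists held a peak over the same bases, with folds of 249 in WT PA, 319 in KO PA and 61.9 in WT RO, but classed as exon. Likewise the Otub2 peak of fold 445 in WT RO, for a deubiquitinase, overlapped a WT PA peak classed as coding sequence. For peaks of 1 block the class was given at the middle of the peak in every case. Between 41 and 104 of the 3′ UTR peaks of a list, depending on the pair, overlapped a peak of another list classed as coding sequence and none classed as 3′ UTR. The class of such a peak is set at its own point, which need not lie in the shared bases.

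The lists were next compared by position, counting a 3′ UTR peak as shared when its exon blocks overlapped any peak of the other list by at least 1 base on the same strand. Of the WT PA peaks 75.1% (72.9% to 77.2%) were shared with KO PA, and of the KO PA peaks 51.2% (49.0% to 53.3%) with WT PA. In RO, 50.4% of the WT peaks (48.4% to 52.5%) were shared with KO and 53.8% of the KO peaks (51.7% to 55.9%) with WT. Between fractions, the KO lists shared more than the WT lists. Of KO PA peaks 71.9% (70.0% to 73.8%) were shared with KO RO and of KO RO peaks 74.6% (72.7% to 76.4%) with KO PA, whereas 60.3% (57.9% to 62.7%) of WT PA peaks were shared with WT RO and 41.7% (39.7% to 43.7%) of WT RO peaks with WT PA. The 3′ UTR peaks of the knockout lists thus overlapped peaks of the other knockout fraction more often than peaks of the wild type in the same fraction. Coding sequence peaks had the same order, at 71.5% of KO PA peaks in KO RO against 60.9% in WT PA, and 86.5% of KO RO peaks in KO PA against 63.7% in WT RO. A larger list offers more peaks to overlap, and the lists held 7502, 9931, 9418 and 8846.

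3′ UTR peaks were shared less often than coding sequence peaks in 11 of the 12 ordered pairs of lists, with the interval of the difference below 0. The difference was −10.1 percentage points for WT PA in KO PA (−12.6 to −7.77), −14.7 for WT RO in KO RO (−17.2 to −12.3) and −18.4 for WT RO in WT PA (−20.8 to −15.9). The exception was KO PA in KO RO, where 71.9% of 3′ UTR and 71.5% of coding sequence peaks were shared, a difference of 0.415 points (−1.85 to 2.63). Genes with an input level of at least 30 CPM in both libraries gave a lower 3′ UTR share in 10 of the 12 pairs, and peaks under an FDR of 0.05 gave it in 11. With the peaks split by tertiles of the fold in the list, WT RO in KO RO differed by −18.2 points in the lowest tertile and −9.92 in the highest. KO PA ran the other way in the lowest tertile in 2 of its 3 pairs, by 5.58 points in WT RO and by 4.85 in KO RO (0.343 to 9.30), while in WT PA the difference was −8.78 points (−12.9 to −4.48).

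**Figure D3:**
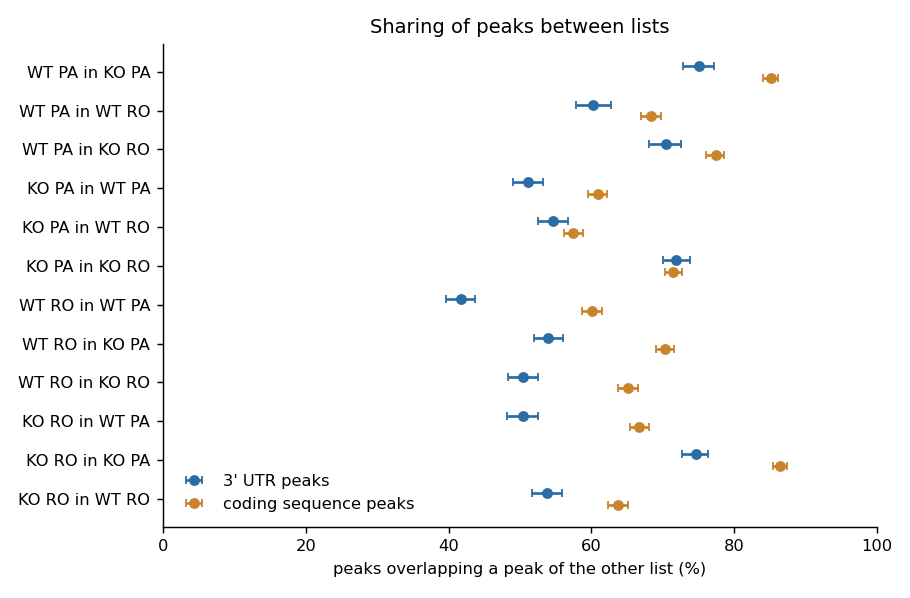
Share of the peaks of the first list, in percent, that overlap a peak of the second list by at least 1 base of exon on the same strand, for 3′ UTR and coding sequence peaks, with 95% Wilson intervals. The 3′ UTR share is lower for every pair but KO PA in KO RO.

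Joining overlapping 3′ UTR peaks of all lists gave 3933 loci. Of these, 618 (15.7%) were in all 4 lists and 1948 (49.5%) in 1 list, of which 915 were in WT RO, 389 in KO RO, 379 in KO PA and 265 in WT PA. Only peaks classed as 3′ UTR were joined, so a locus of 1 list can still overlap a peak of another class elsewhere. Counted against peaks of every class, the 3′ UTR peaks without overlap in another list numbered 220, 335, 845 and 356. Among loci of exactly 2 lists, 325 were shared by KO PA and KO RO, 128 by KO PA and WT RO, 98 by WT RO and KO RO, 79 by WT PA and WT RO, 70 by WT PA and KO PA, and 49 by WT PA and KO RO. Loci of both knockout lists alone thus outnumbered those of both wild-type lists alone and those of either fraction alone. Loci of coding sequence peaks were not counted in this way, so this order is not read as particular to 3′ UTR peaks. In the pairwise shares above, coding sequence peaks of the knockout lists also overlapped the other knockout list most often among the pairs compared. With peaks under an FDR of 0.05 the loci in WT RO alone numbered 642, those in both KO lists alone 345 and those in all lists 581 of 3462.

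**Figure D4:**
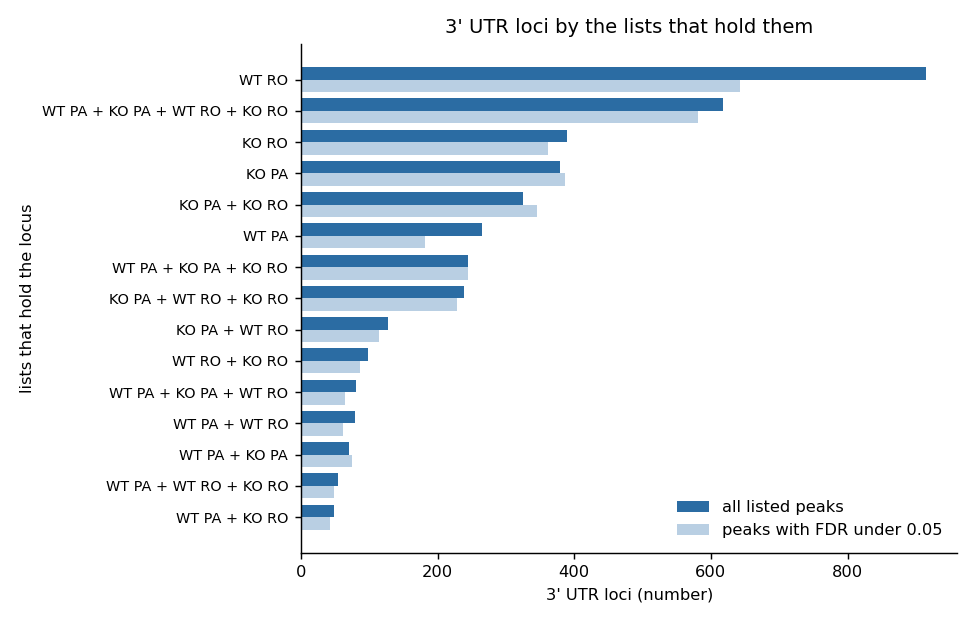
Number of 3′ UTR loci by the lists that hold them as a 3′ UTR peak, for all listed peaks and for peaks with an FDR under 0.05. The 915 loci of the WT RO list alone are the largest group, followed by the 618 of all 4 lists.

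Peaks found in more lists were wider and had higher folds. In WT RO the median fold was 12.1 for the 845 3′ UTR peaks with no counterpart in any other list and 30.1 for the 760 with one in all others, and the median widths were 180.0 and 300 bases. In WT PA the corresponding folds were 8.43 and 16.9, in KO PA 9.21 and 23.3, and in KO RO 8.74 and 19.9. Peaks with an FDR of 0.05 or more were 33.7% of the WT RO peaks with no counterpart and 3.16% of those with 3, and in WT PA these shares were 42.7% and 2.18%. Of the loci in all lists, 511 had 1 peak in each, and the classified points of the 4 peaks lay within 67 bases of each other at the median, although only 2 loci had identical bounds in every list. Overlap was what joined them, so that their nearness is given as a description.

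The strongest peaks with no counterpart in any other list were named by rule, 3 for each list. In WT RO they belonged to Sephs2, a selenophosphate synthetase, with a fold of 128 at chr7:127272356-127272594 on the minus strand, to Ppp2r3a, a regulatory subunit of protein phosphatase PP2A, with 102, and to Tmc1, a channel protein of hair cells, with 99.5. In WT PA they belonged to Tbc1d17, a Rab GTPase-activating protein, with 74.8, to Khnyn with 58.0 and to Art5 with 52.7. In KO RO they belonged to Stard5, a sterol-binding protein, with 61.2, to Mcm8, a helicase needed for meiotic recombination, with 30.9 at chr2:132843478-132843687 on the plus strand, and to Cptp, a lipid transfer protein, with 29.4. The Stard5 peak lay past the annotated gene end, at a distance of −10063 bases. In KO PA they belonged to Samd4b, Gm4969 and Crk, with folds of 30.5, 29.7 and 29. The absence of a peak from a list does not show that the mark was absent.

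Peaks in 3′ UTRs were a smaller part of the X chromosome than of the other chromosomes. They made up 10.1% (15 of 148), 11% (26 of 237), 16% (24 of 150) and 10.3% (24 of 232) of the X-linked peaks, against 20.9%, 22.1%, 24.7% and 24.4% elsewhere. The differences were −10.8 points (−14.8 to −4.79), −11.1 (−14.6 to −6.42), −8.71 (−13.8 to −1.95) and −14.0 (−17.5 to −9.37). With peaks under an FDR of 0.05 the WT RO difference was −7.66 points with an interval that held 0 (−13.5 to 0.483). Coding sequence peaks were 59.9% to 66.2% of the X-linked peaks and 49.6% to 56.2% of the others. The X-linked genes with a 3′ UTR peak in all lists were Smim10l2a, Tbx22 and Zfp275. Rlim, a ubiquitin ligase of X inactivation, had 1 in each knockout list and none in the wild type, at 101, 196, 67.5 and 171 CPM. The libraries with the Rlim peak were thus those with the higher input.

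The input libraries, with total counts between 9921365 and 13147239, show how the members depend on the level of their mRNA. All 3195 genes were found in the count table. Of those with a 3′ UTR peak in a list, 37, 33, 51 and 32 had 3 counts or fewer in the matching input library. The genes with a 3′ UTR peak in a list had a median level of 49.0, 45.9, 43.9 and 40.9 CPM in the input library of the same name, against 10.4 to 11.3 for all genes at 1 CPM or more. For genes with a coding sequence peak the medians were 50.5, 47.8, 44.1 and 45.6 CPM, so the level is not particular to 3′ UTR peaks. Genes with a 3′ UTR peak and no coding sequence peak were lower, at 33.1 to 40.7. In WT RO the share of genes with a 3′ UTR peak rose from 1.30% at 1 to 3 CPM to 9.39% at 10 to 30, 16.2% at 30 to 100 and 23.1% at 100 to 300. Above that level the classes parted. At 300 CPM or more, 21.7% of the WT RO genes had a 3′ UTR peak, which differed by −1.37 points from the range below (−5.21 to 2.74), while the share with a coding sequence peak went from 31.7% to 47.4%, a difference of 15.7 points (11 to 20.4). The same difference for 3′ UTR peaks was 0.398 points (−2.99 to 4.1), −2.59 (−6.95 to 2.24) and −1.39 (−5.60 to 3.28) for WT PA, KO PA and KO RO, and for coding sequence peaks it was 15.2, 19.5 and 21.5 points.

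**Figure D5:**
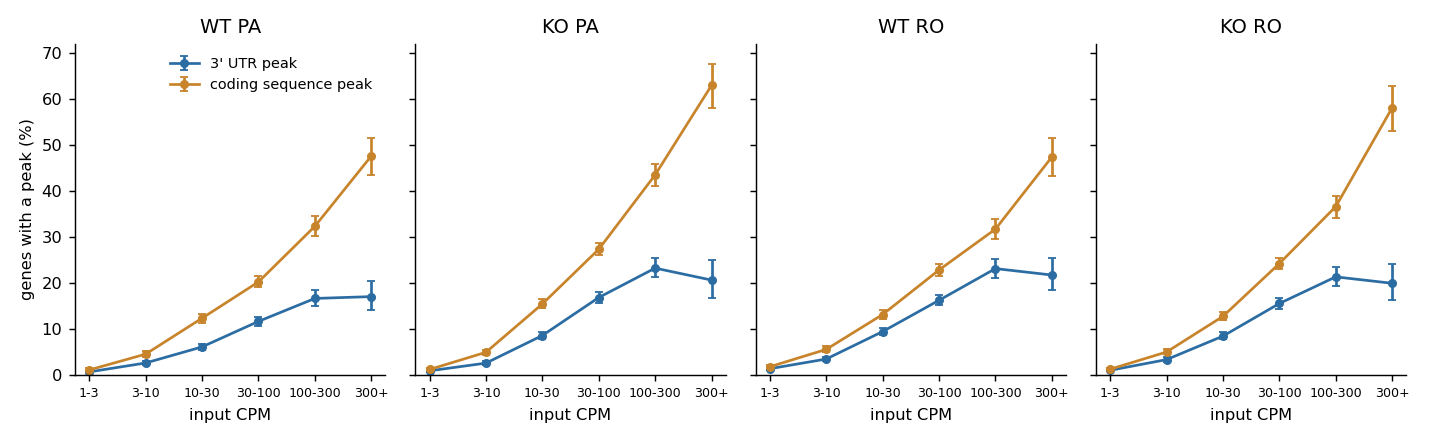
Share of genes, in percent, with a 3′ UTR peak or a coding sequence peak by the input level of the gene in CPM, for the list and input library of the same name, with 95% Wilson intervals. The genes were not restricted to protein-coding genes. The 3′ UTR share levels off above 100 CPM at 16.6% to 23.2%, while the coding sequence share goes on rising to 47.4% to 63.0%.

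The genes with a 3′ UTR peak differed less between input libraries than genes in general. In PA, of 3116 such genes at 1 CPM or more, 309 (9.92%) were at least 2-fold higher in KO and 352 (11.3%) at least 2-fold lower, where all genes gave 23.8% higher and 19.9% lower. In RO, of 3122 genes, 352 (11.3%) were higher and 347 (11.1%) lower, against 23.0% and 19.0%. Between fractions, 256 (8.22%) were higher and 339 (10.9%) lower in RO among the WT libraries, against 21.6% and 18.7%, and 133 (4.27%) and 159 (5.10%) among the KO libraries, against 17.5% and 15.2%. These genes lie at higher levels, where counting error is smaller. They were also nearly all protein-coding, whereas the set of all genes was not restricted to protein-coding genes. At 10 CPM or more the shares in PA were 8.22% and 10.2% against 13.3% and 13.0% for all genes, and in RO 9.12% and 10.2% against 11.8% and 12.9%. The median log2 ratio of KO over WT was −0.03 in both fractions, against 0.04 for all genes tested at 1 CPM or more. At 10 CPM or more it was −0.03 against −0.04 in PA and −0.05 against −0.05 in RO, so that the contrast was gone.

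In RO, genes with a 3′ UTR peak in 1 genotype were on the whole higher in the input of that genotype. The 754 genes with a peak in the KO list alone had a median log2 ratio of KO over WT of 0.16 (0.07 to 0.25), and the 886 with a peak in the WT list alone had −0.16 (−0.22 to −0.10). In PA these medians were 0.03, with an interval that holds 0 (−0.04 to 0.07), and −0.13 (−0.25 to −0.03). The part of the level in the presence of a peak was not tested further. In bulk samples such as these, fewer cells of a type and less RNA per cell cannot be told apart.

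Among genes with a 3′ UTR peak in both lists of a fraction, those with the lowest and highest KO over WT ratios in input were named. In PA, Pou2f2, a POU-domain transcription factor, had 1069, 136, 988 and 265 counts, a log2 ratio of −2.84 in PA and −1.82 in RO, and 4, 3, 4 and 2 3′ UTR peaks. Ptpn20, a tyrosine phosphatase, had 4445, 798, 3671 and 817 counts, and a ratio of −2.36 in PA. In RO, Sept12, a septin of the sperm tail annulus, had 6003, 1159, 6518 and 954 counts, a ratio of −2.70, and 1 peak in every list, with folds of 18.3, 10.5, 19.0 and 60.0. Lrrc71 had 18466, 3419, 18302 and 3678 counts, and 3′ UTR peaks in the RO lists alone. For these genes both KO libraries were below both WT libraries. Mif4gd, which takes part in histone mRNA translation, also had this order, with 4163, 933, 4076 and 753 counts. The lowest log2 ratio in PA was −3.47, of Gm12057, with 129, 9, 113 and 22 counts. Tmub2 and Hgh1 had −2.58 and −2.57 in PA, but −0.24 and −0.41 in RO. Susd5 and Gpn2 had −2.49 and −2.43 in RO, and −0.89 and −1.17 in PA.

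At the other end, Cldn5, a tight junction protein of endothelium, had 18, 136, 103 and 100 counts, a log2 ratio of 2.90 in PA and 0.03 in RO. Csf1r, the growth factor receptor of macrophages, had 25, 133, 79 and 236 counts and a 3′ UTR peak in every list. Klf13, a transcription factor, had 142, 354, 60 and 301 counts and a ratio of 2.36 in RO, and Cxcl12, a chemokine made by stromal cells, had 699, 827, 176 and 860 counts and a ratio of 2.35 in RO. The other genes at this end were Tnfsf10, Coa7 and Ap3m2 in PA, with log2 ratios of 2.37, 2.37 and 1.95, and Shisa2, Slc30a4 and Lrrc8a in RO, with 2.86, 2.67 and 2.24. Of the 10 genes, Cldn5, Csf1r and Cxcl12 are known from somatic cells. Somatic markers with a symbol carried 3′ UTR peaks in any list at 2 of 4 genes for Sertoli cells, 1 of 1 for peritubular myoid cells, 3 of 5 for endothelium, 1 of 2 for macrophages and 0 of 3 for Leydig cells, beside 3195 of 8733 for all named genes. Sox9 of Sertoli cells, Myh11 of peritubular myoid cells, Cdh5 of endothelium and Csf1r had one in all 4 lists. The summed input level was 179, 243, 93.8 and 238 CPM for the endothelial markers, 239, 318, 172 and 198 for Sertoli, 285, 272, 143 and 226 for myoid, 155, 45.3, 47.7 and 17.3 for Leydig and 3.07, 16.8, 8.08 and 24.8 for macrophage markers. No somatic list was at 0 in any library. The part of somatic cells in the lists was not tested.

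The labelled cell types were checked against 6 of 10 pachytene and 6 of 10 round spermatid markers that had a symbol. The summed pachytene level was 3178, 2114, 3074 and 2458 CPM, higher in RO than in PA for KO and slightly lower for WT. Sycp2 alone gave 1777, 826, 1518 and 929.8 CPM of this sum, and the markers differed in direction. Tex15, at 383, 564, 525 and 718 CPM, was higher in RO than in PA in both genotypes. The summed round spermatid level was 266, 426, 493 and 696, higher in RO than in PA for both genotypes. Pachytene markers were thus abundant in the RO libraries too. Differences between PA and RO above are therefore between libraries of these names.

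Gene groups that act on 3′ UTRs were examined for 3′ UTR peaks of their own. The share of named genes with such a peak was 15.2%, 21.1%, 22.1% and 20.5%, where a gene is named only if it has a peak of any class in any list. Of 24 named members of the list of microRNA silencing and deadenylation, 6, 12, 12 and 10 had a 3′ UTR peak, and 13 had one in any list. In any list, 36.6% of all named genes had one. With gene groups of this size no difference from the background is read. Pan3, a subunit of a deadenylase, had 3, 2, 2 and 3 peaks with a highest fold of 41.8, 99.3, 234 and 33.8 at a steady 190.4 to 219 CPM. Ddx6, a helicase of processing bodies, had 2, 2, 1 and 2 peaks with folds up to 67.5 in WT PA. Dgcr8, the partner of Drosha in microRNA processing, had 1 in every list with folds of 36.9, 58.7, 11.4 and 12.9. Ago4, an Argonaute protein, and Cnot2, a subunit of the CCR4-NOT deadenylase, also had one in all lists. Ago2, Dcp2, Btg2 and Tob2 had one in KO PA, WT RO and KO RO and none in WT PA.

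Of 18 named RNA-binding proteins that act on 3′ UTRs, 12 had a 3′ UTR peak in any list, and 5, 6, 8 and 5 per list. The shares over all named genes were 36.6% in any list and 15.2%, 21.1%, 22.1% and 20.5% per list. For the groups of this paragraph too, no difference from these shares is read. Zfp36l2, which binds AU-rich elements, had a peak in every list with folds of 29.8, 97.0, 190 and 85.9 at 14.3 to 31.4 CPM. Upf1, the helicase of nonsense-mediated decay, had 1, 2, 2 and 2 with folds up to 18.2. Ybx2, which holds stored mRNAs in germ cells, had one in KO PA, WT RO and KO RO with folds of 10.2, 12.9 and 5.05, at 469, 131, 378 and 167 CPM. Of 12 named factors of 3′ end cleavage and polyadenylation, 5 had one in any list, and Cpsf7 had one in all 4, with folds of 8.13, 38.4, 20.2 and 73.0.

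Groups of meiotic and germ cell genes were examined in the same way, by any list, where 36.6% of all named genes had a 3′ UTR peak. With groups of this size no difference from that share is read. Of 15 named genes of the meiotic prophase 2 had a 3′ UTR peak, Syce1 of the synaptonemal complex in KO PA and WT RO and Trip13 in WT RO. Of 9 named genes of germ granules and the piRNA pathway 1 had one, the helicase gene Mov10l1, in WT PA, KO PA and KO RO. Of 15 named m6A writers, erasers and readers 2 had one, Mettl16 and Ythdf1, both in WT RO alone. Of 24 named genes of spermiogenesis 7 had one, of which Catsper2, a subunit of the sperm calcium channel, had one in all 4 lists with folds of 3.95, 8.40, 38.3 and 4.34. Tnp2, which packs DNA in late spermatids, had one in each WT list with folds of 1.87 and 2.43 and none in the KO lists, although its input was higher there, at 13.8, 55.4, 18.9 and 127 CPM. The Tnp2 peak was thus listed where the input was lower.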

How the data were processed

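Peaks were assigned to a genotype and fraction by the name of the list, and to the 3′ UTR by the authors' class. The authors deposited 4 peak lists with a fold of immunoprecipitated over input, a p-value and a log10 false discovery rate (a score that reaches minus infinity), and a table of whole-number counts per Ensembl gene for the 4 input libraries, per the file headers. The submitters' processing notes name cutadapt 2.5, HISAT2 2.1.0, HOMER 4.10.4 and build mm10, with no role given. The peak caller, the handling of duplicates and strand, and the counter are not given in the sources used here. Members, gene lists and the rules for named peaks and genes were chosen with earlier results of these data known. By these rules each list gave its 5 peaks with the highest fold, 3 with the highest fold in no other list, the 3 widest and the genes with the most peaks, all lists gave the 10 loci with the highest mean fold percentile, and each fraction gave the 5 highest and 5 lowest input ratios of genes with a peak in both lists, at least 10 CPM in the higher library and no library at 0. Scd2, Gm5134, Rlim, Smim10l2a, Tbx22, Zfp275 and the genes of the sequence windows were named after their values were seen.

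Overlaps used exon blocks on 1 strand, with a minimum of 1 base, and were checked with bedtools 2.31.1 for 2 pairs of lists. Shares carry Wilson intervals, differences of shares Newcombe intervals, ratios of numbers exact binomial intervals and medians order-statistic intervals. Counts were scaled with TMM (edgeR 4.0.16, R 4.3.3) to log2 CPM with a prior count of 2, for genes at 1 CPM or more in either library. On simulated counts all 200 changed genes passed 2-fold in KO over WT in PA (22713 genes) and in RO (22699 genes). The changes put in were larger than 2-fold and the noise was Poisson alone, so their passing checks the code only. Of the unchanged genes, 291 of 22513 in PA and 286 of 22499 in RO also passed 2-fold. DESeq2 1.42.0 size factors, stricter filters and other overlap rules were tried as alternatives. Symbols come from the peak lists, which name 8733 of 53465 genes, so that Alkbh5 itself was not analysed here and the genotype labels were not checked. RefSeq tables (GRCm38.p6, the build the notes call mm10) gave gene ends by symbol, 1005 microRNA hairpins and the promoter windows. Overlapping windows gave the same letters in all 2712 pairs on 1 strand and all 1912 on opposite strands. Other steps used Python 3.11.15 with pandas 2.3.3 and scipy 1.17.1.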

Additional observations from a re-analysis of the deposited data

Results flagged for a closer look

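The number of 3′ UTR peaks moved in opposite directions between genotypes in the 2 cell fractions, 1.39 times as many in KO as in WT in PA and 0.918 times as many in RO. The whole lists had the same order, with 9931 peaks in KO and 7502 in WT in PA, and 8846 and 9418 in RO. Coding sequence peaks gave ratios of 1.29 in PA and 1.01 in RO. The difference between the fractions was not tested, since each group has 1 library. The RO ratio of 3′ UTR peaks passed 1 with peaks under an FDR of 0.05.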

How the results depend on the processing

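Of 120 values recomputed under other settings, 78 kept within their interval or within 1.5 times their count, 41 moved further and 1 turned its direction. That one was the ratio of 3′ UTR peaks in KO over WT in RO, 0.918 for all listed peaks, 1.06 under an FDR of 0.05 and 0.85 with a fold of at least 5. Under an FDR of 0.05 the KO over WT ratio in PA was 1.53 and the RO over PA ratio in WT 1.39. With a fold of at least 5 the 3′ UTR share was 21.9%, 22.8%, 25.5% and 25% (order WT PA, KO PA, WT RO, KO RO). Under an FDR of 0.05 it was 23.4% in WT RO, median widths were 239 bases in WT PA and 240.0 in WT RO, and median folds 14.2 and 19.0. Shared shares are given in the order WT PA in KO PA, KO PA in WT PA, WT RO in KO RO, KO RO in WT RO, WT PA in WT RO, WT RO in WT PA, KO PA in KO RO and KO RO in KO PA. A reciprocal overlap of 50% gave 59.8%, 42.5%, 37.5%, 40.5%, 45.9%, 31.4%, 64.9% and 66.8%. Requiring the 3′ UTR class in the other list gave 69.7%, 48.6%, 46.2%, 50.6%, 56.3%, 37.9%, 68.5% and 70.9%. An FDR under 0.05 in both lists moved WT PA in KO PA to 80.5%, WT RO in KO RO to 56.8% and WT RO in WT PA to 45.7%. Counting genes with a 3′ UTR peak in the other list gave 57.3% for KO PA in WT PA, then 57.2%, 61.3%, 66.8%, 48.9%, 75.6% and 78.0%. At 10 CPM or more, 164 genes (6.09%) were past 2-fold higher in RO over PA in WT, against 11.5% of all genes. In KO, 68 (2.49%) were higher and 99 (3.63%) lower, against 5.21% and 5.64% of all genes. Fewer genes enter the comparison at this level. Loci by pattern, X-chromosome shares, level ranges and differences from the coding sequence were recomputed under alternatives chosen after seeing the data. No paired analysis was possible because each group has 1 library, and no library could be left out for the same reason. The depth of the immunoprecipitated libraries, which limits which peaks can be called, was not analysed here.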
